A study of Mus musculus with 9 samples.

Results

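The genes described here are 9 secreted factors of fibroblasts that are counted among, or expressed with, the products of senescent cells. They are the cytokines *Il6*, *Lif* and *Csf1*, the chemokines *Cxcl1*, *Cxcl5*, *Cxcl12*, *Ccl2* and *Ccl7*, and the protease inhibitor *Serpina3n*. They were chosen by gene name, and all 9 were among the 15184 genes of the table of normalized counts. PolyA+ RNA of mouse embryonic fibroblasts (MEFs) was measured by RNA-Seq in 9 libraries, to follow what extra HNRNPK, an RNA-binding protein, does to fibroblasts. All cells were WT MEFs from embryos that were transduced with the lentiMPHv2 and lentiSAMv2 vectors of the synergistic activator mediator (SAM) system, in which an inactive Cas9 and a guide RNA bring transcriptional activators to a chosen gene, and selected with blasticidin and hygromycin. The 3 control libraries are labelled Empty vector, and the methods describe that control as lentiSAMv2 with a guide that targets no gene. For that control guide the methods print the same sequence as for sgHnrnpk2, a guide to *Hnrnpk*. The other 6 libraries are labelled Hnrnpk_SAM, 3 of a line called SAM1 and 3 of another called SAM2. The methods name 2 guides used independently, and the labels do not say which line carries which guide. Nor do the labels say whether libraries of one group came from separate cultures, so that p-values measure the spread between libraries, which may be technical.

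Cells that enter senescence stop dividing but stay active in secretion, and the mixture that they release (the senescence-associated secretory phenotype) is known for IL-6, chemokines that attract neutrophils and monocytes, growth factors and protease inhibitors. In fibroblasts, transcription of *Il6*, *Cxcl1*, *Cxcl5*, *Ccl2* and *Ccl7* is induced by NF-kB and C/EBP factors downstream of IL-1 and TNF, and many of these mRNAs are short-lived because proteins bind AU-rich stretches in them. *Cxcl12* and *Csf1* are made by resting stromal cells, where they keep hematopoietic cells and macrophages in place and alive. *Lif* and IL-6 signal through the shared receptor subunit gp130 (*Il6st*) to JAK kinases and STAT3, and *Serpina3n* is a target of STAT3 in acute-phase responses.

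Promoter sequences in RefSeq (GRCm38.p6) were matched for 6 of the 9 genes, while *Cxcl5*, *Ccl2* and *Ccl7* had none in the table. The 250 bases before the start and the 50 bases from it on were searched on both strands, and all matches lay before the start. The motifs were a form of the NF-kB site (GGGA and TTTCC with any base between), TGANTCA, the AP-1 site, and TTCCNGGAA, the STAT site. The sequences of *Il6*, *Cxcl1* and *Csf1* are shown because each holds the NF-kB form while their mRNAs took different courses in the lines, and that of *Serpina3n* because its mRNA changed most. They lie at chr5:30012864-30013113 (plus strand), chr5:90890995-90891244 (plus strand), chr3:107760470-107760719 (minus strand) and chr12:104406458-104406707 (plus strand) of GRCm38.p6, are written 5′ to 3′ along the gene, end at the base before the start, and have matches in capitals.
*Il6*: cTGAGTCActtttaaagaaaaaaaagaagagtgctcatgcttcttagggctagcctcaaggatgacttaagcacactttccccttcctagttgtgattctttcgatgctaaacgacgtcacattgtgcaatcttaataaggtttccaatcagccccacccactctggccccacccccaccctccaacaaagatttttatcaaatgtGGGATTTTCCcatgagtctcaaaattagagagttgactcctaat
*Cxcl1*: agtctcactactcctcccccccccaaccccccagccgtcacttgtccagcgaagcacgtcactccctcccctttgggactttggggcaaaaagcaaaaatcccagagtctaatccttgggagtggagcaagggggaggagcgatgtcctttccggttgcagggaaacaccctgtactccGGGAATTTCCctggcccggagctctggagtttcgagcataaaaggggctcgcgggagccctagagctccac
*Csf1*: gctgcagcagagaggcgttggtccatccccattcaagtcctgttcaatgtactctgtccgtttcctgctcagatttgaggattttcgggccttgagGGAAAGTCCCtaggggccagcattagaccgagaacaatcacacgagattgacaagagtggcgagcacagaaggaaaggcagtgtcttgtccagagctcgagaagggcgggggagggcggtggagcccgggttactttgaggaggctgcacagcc
*Serpina3n*: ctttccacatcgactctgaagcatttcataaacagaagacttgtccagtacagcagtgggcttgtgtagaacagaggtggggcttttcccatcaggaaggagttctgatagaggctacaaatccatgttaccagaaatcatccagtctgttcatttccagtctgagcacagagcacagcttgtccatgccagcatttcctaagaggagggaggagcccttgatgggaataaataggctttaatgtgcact

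The NF-kB form was found from 44 to 35 bases before the start of *Il6*, from 71 to 62 bases before that of *Cxcl1*, and on the opposite strand from 154 to 145 bases before that of *Csf1*. *Il6* also held an AP-1 site from 249 to 243 bases before the start, and *Lif* held one, TGACTCA, from 228 to 222 bases before it. None of the 3 motifs matched in the windows of *Cxcl12* and *Serpina3n*, which says only that these letters are not there. Among 32851 promoters of 300 bases in the table, 0.411% held the NF-kB form, 7.81% the AP-1 site and 1.15% the STAT site. These matches describe sequence and are not shown to be bound.

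Each library held between 41759636 and 49026626 reads on the listed genes. *Hnrnpk*, the targeted gene, had 25058, 26098 and 26164 normalized counts in empty vector, 24102, 24044 and 23619 in SAM1, and 26608, 26859 and 26221 in SAM2. The SAM1 libraries lay below all empty vector libraries (log2 fold change -0.11, limma adjusted p = 0.00252), and the SAM2 libraries lay above them by 0.044, which did not pass the test (limma adjusted p = 0.159). Under quantile normalization *Hnrnpk* was called higher in SAM1 (0.094, limma adjusted p = 0.00502), in SAM2 (0.22, limma adjusted p = 4.59e-06) and with both together (0.16, limma adjusted p = 0.0199), while with libraries centred on their medians SAM2 had -0.035. Because the mRNA of the targeted gene was not higher in SAM1 in the deposited scaling, directions below refer to the libraries labelled Hnrnpk_SAM and not to a measured excess of *Hnrnpk* mRNA. All 12 markers on a fibroblast list, among them *Fn1*, *Col1a1*, *Vim* and *Thy1*, were in the table, and limma called 12 of 12 different between SAM1 and SAM2, where 60.3% of all genes were called.

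Against empty vector, with the lines pooled, *Il6* and *Cxcl5* were higher, *Lif*, *Csf1*, *Cxcl12*, *Ccl2* and *Serpina3n* were lower, and *Cxcl1* and *Ccl7* did not pass the test (limma on log2 of normalized count + 1, adjusted over all 15184 genes, threshold 0.05). That is 7 of 9 genes called, where 53.9% of all genes were called, 26.8% higher and 27.0% lower. In line SAM1 alone, 2 were higher and 5 lower, against 74.3% of all genes called (37.3% higher, 36.9% lower). In line SAM2 alone, 4 were higher and 5 lower, against 70.5% of all genes called (35.2% higher, 35.3% lower). The counts are read against these shares, and what follows describes the direction and size of each gene. In every library 7 of the 9 exceeded 10 normalized counts, and 5 of these 7 were called lower in each of the 3 comparisons. *Il6* exceeded 10 in 2 of the 3 empty vector libraries and in all of the lines. The authors' filter needs 3 libraries above 10, so *Il6* passed it only with libraries of the lines, where it is high. Its place in these counts is therefore no support. *Cxcl5* was below 10 in all empty vector libraries and passed the authors' filter only through the lines, where it is high, so that it had to differ, and its place in these counts supports nothing. The libraries of the 2 groups did not overlap for 7 genes with both lines together, for 7 in SAM1 and for 9 in SAM2, while the shares of all genes without overlap were 53.1%, 74.4% and 73.5%. The median log2 fold change of the 9 genes was -0.53 for both lines, -0.44 for SAM1 and -0.25 for SAM2, beside medians over all genes of 0.0087, 0.0093 and -0.0015. The comparisons of SAM1 and of SAM2 share the empty vector libraries, so their values are given side by side.

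**Figure D1:**
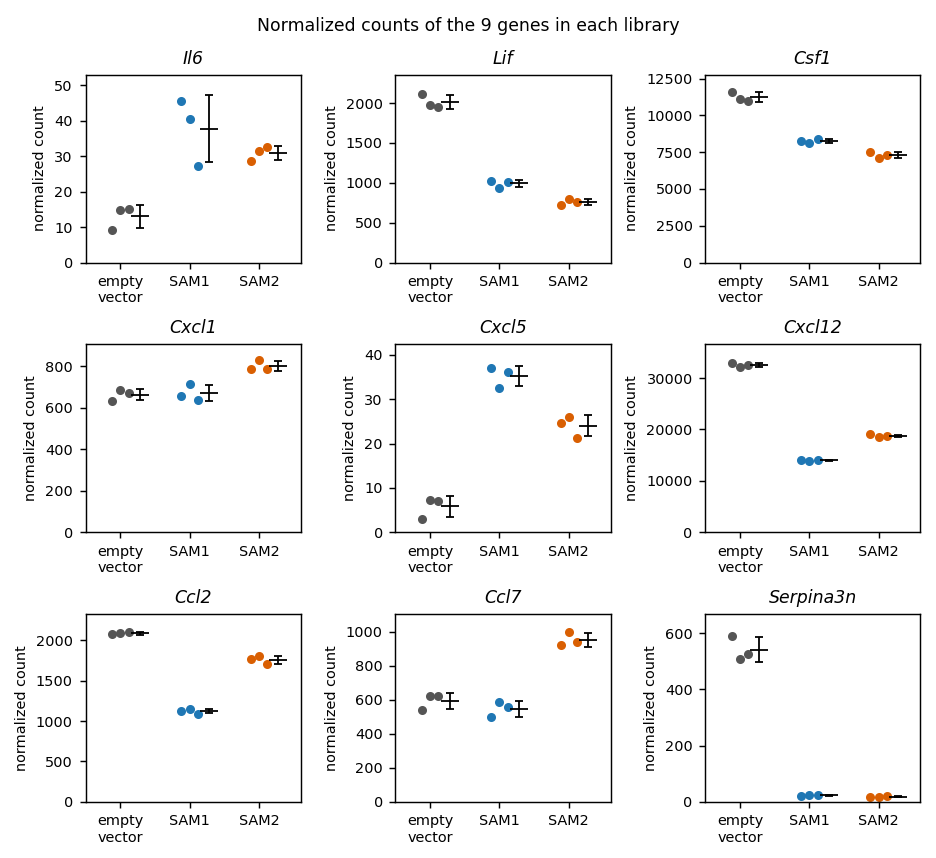
Normalized counts (y axis, linear from 0) of each gene in the 3 libraries of empty vector, SAM1 and SAM2 (points), with the group mean and SD beside them. *Serpina3n* falls from above 506 to below 23.5, *Cxcl12*, *Lif*, *Csf1* and *Ccl2* sit lower in both lines, *Il6* and *Cxcl5* sit higher at low counts, and *Cxcl1* and *Ccl7* are highest in SAM2.

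**Figure D2:**
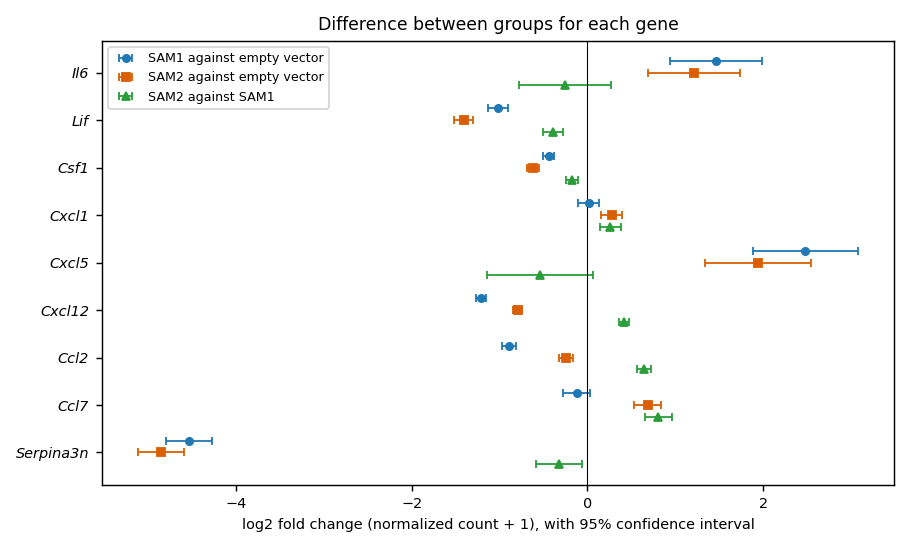
Log2 fold change (x axis, of normalized count + 1) of each gene for SAM1 against empty vector, SAM2 against empty vector and SAM2 against SAM1, with 95% confidence intervals from limma. The intervals of *Cxcl1* and *Ccl7* in SAM1 and of *Il6* and *Cxcl5* between the lines cross 0.

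*Il6* encodes interleukin-6, the cytokine most used as a marker of the senescent secretome, and lies on chromosome 5 of GRCm39 from 30218112 to 30224979. It had 9.21, 14.7 and 15.2 normalized counts in empty vector, 45.6, 40.5 and 27.3 in SAM1, and 28.7, 31.5 and 32.5 in SAM2. Both lines exceeded empty vector in all 6 libraries, while they overlapped each other. These values rest on few reads, 36 in the empty vector libraries together, 117 in SAM1 and 98 in SAM2. The group means were 13.0 ± 3.32, 37.8 ± 9.40 and 30.9 ± 1.97 (SD, n = 3 each). The log2 fold change was 1.47 in SAM1 (standard error 0.240, limma adjusted p = 9.70e-05) and 1.21 in SAM2 (standard error 0.240, limma adjusted p = 5.26e-04). Between SAM2 and SAM1 it was -0.25, with a 95% interval from -0.77 to 0.27 (limma adjusted p = 0.380), and under quantile normalization the sign of that difference turned (0.10). Because *Il6* passed the filter only with libraries of the lines, its rise and the p-values against empty vector are given as a description. Its mRNA stayed scarce, at percentile 9.79 of the mean normalized counts of all genes in empty vector, 16.9 in SAM1 and 17.2 in SAM2.

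*Lif*, the leukemia inhibitory factor of the IL-6 family, lies on chromosome 11 from 4207557 to 4222514 and moved the other way. Its normalized counts were 2113, 1973 and 1949.8 in empty vector, 1027, 940.1 and 1014 in SAM1, and 719, 793 and 758 in SAM2. The 3 groups did not overlap, and SAM2 was lowest. The log2 fold change came to -1.02 in SAM1 (standard error 0.0513, limma adjusted p = 8.17e-10) and -1.41 in SAM2 (limma adjusted p = 5.07e-11), and the lines differed by -0.39 (limma adjusted p = 2.30e-05).

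*Csf1* encodes macrophage colony-stimulating factor, the survival factor of macrophages, on the minus strand of chromosome 3 from 107648364 to 107667806. It had 11604, 11114 and 10945 normalized counts in empty vector, 8231, 8121 and 8399 in SAM1, and 7483, 7120.2 and 7305 in SAM2. The groups were again fully separate and in the same order as for *Lif*, with a narrower gap. The means fell by 26.5% in SAM1 and fell by 34.9% in SAM2. On the log2 scale the differences were -0.44 (standard error 0.0310, limma adjusted p = 2.32e-08) and -0.62 (limma adjusted p = 1.09e-09), and the difference SAM2 minus SAM1 was -0.18 (limma adjusted p = 2.88e-04).

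The CXC chemokines followed no single course. *Cxcl1* and *Cxcl5* are ligands of CXCR2 that attract neutrophils, and both lie on chromosome 5, from 91039094 to 91040974 and from 90907186 to 90909483, with 129610 bases between them. *Cxcl5* had 3.07, 7.35 and 7.01 normalized counts in empty vector, 37.0, 32.6 and 36.1 in SAM1, and 24.7, 26.0 and 21.3 in SAM2. The groups did not overlap, although the empty vector level rests on 16 reads over 3 libraries, against 109 in SAM1 and 76 in SAM2. As a description, since the filter on low values fixed its direction, the log2 fold change from empty vector was 2.48 in SAM1 and 1.94 in SAM2 (standard error 0.278 each), and the ratio of the means was 6.07 and 4.13. SAM2 lay below SAM1 in all libraries, yet the difference of -0.54 (95% interval -1.14 to 0.065) did not pass the test (limma adjusted p = 0.112). That difference was called when empty vector replicate 1 was left out (limma adjusted p = 0.0309), with a pseudocount of 10 and by edgeR on recovered reads (adjusted p = 0.0254 and 0.0228).

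*Cxcl1* was far more abundant than *Cxcl5* in every library and passed the test in SAM2 alone. It had 633, 685 and 671 normalized counts in empty vector, 656, 713 and 639.7 in SAM1, and 788, 829.9 and 789 in SAM2. SAM1 overlapped empty vector, and the 3 SAM2 libraries lay above the other 6. In SAM1 the log2 fold change was 0.014, with a 95% interval from -0.10 to 0.13 (limma adjusted p = 0.829), and its sign turned under quantile and median scaling (-0.021 and -0.032) and without empty vector replicate 1 (-0.019) or SAM1 replicate 2 (-0.033). For SAM2 it was 0.28 (standard error 0.0538, limma adjusted p = 4.69e-04), and SAM2 exceeded SAM1 by 0.26 (limma adjusted p = 9.67e-04). With both lines together it was 0.14 (limma adjusted p = 0.209), and the mean of the lines in the model of 3 groups, which leaves their difference out of the error, gave adjusted p = 0.0130 for the same value.

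*Cxcl12*, the stromal ligand of CXCR4 and ACKR3, was the most abundant of the 9 genes. It lies on chromosome 6 from 117144945 to 117158328. Its normalized counts were 32925, 32103 and 32581 in empty vector, 14068, 13915 and 14116 in SAM1, and 19019.5, 18573 and 18624 in SAM2. The SD within a group was at most 1.30% of the mean and the 3 groups were far apart, with SAM1 lowest. The means fell by 56.9% in SAM1 and fell by 42.4% in SAM2, which is -1.21 (standard error 0.0246, limma adjusted p = 1.21e-13) and -0.80 (limma adjusted p = 1.03e-11) on the log2 scale. SAM2 exceeded SAM1 by 0.42 (limma adjusted p = 1.15e-08).

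*Ccl2* and *Ccl7* encode the monocyte attractants MCP-1 and MCP-3, which share the receptor CCR2. They are neighbours on chromosome 11, from 81926397 to 81928279 and from 81936532 to 81938351, with 8252 bases between them on the same strand. *Ccl2* had 2074, 2086 and 2109 normalized counts in empty vector, 1126, 1153 and 1093 in SAM1, and 1770.3, 1805 and 1708 in SAM2. It fell in both lines without overlap, much further in SAM1. The log2 fold change was -0.89 in SAM1 (standard error 0.0366, limma adjusted p = 9.85e-11) and -0.25 in SAM2 (limma adjusted p = 4.39e-05), and SAM2 minus SAM1 gave 0.65 (limma adjusted p = 7.75e-09). For both lines together it was -0.57 (limma adjusted p = 0.0270). This pooled call was lost when any 1 of empty vector replicates 1, 2 and 3 was left out (limma adjusted p = 0.0723, 0.0749 and 0.0783).

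*Ccl7* had 539, 621 and 619 normalized counts in empty vector, 495, 585 and 556 in SAM1, and 919.8, 999 and 938 in SAM2. SAM1 and empty vector overlapped, and all SAM2 libraries lay above both. The log2 fold change was 0.68 in SAM2 (standard error 0.0714, limma adjusted p = 1.58e-06), and the SAM2 mean was 60.6% above that of empty vector. In SAM1 it was -0.12, with a 95% interval from -0.28 to 0.033 (limma adjusted p = 0.141). It passed the threshold without empty vector replicate 1 (-0.19, limma adjusted p = 0.0255) and without SAM1 replicate 2 (-0.17, limma adjusted p = 0.0469). Under quantile normalization it was also called lower (-0.18, limma adjusted p = 0.0348). The lines differed by 0.81 (limma adjusted p = 6.21e-07). Thus in SAM2 *Ccl2* lay below and *Ccl7* above empty vector, each past the test, while in SAM1 *Ccl2* fell and *Ccl7* did not pass the test. With the lines as 1 group, *Ccl7* had a log2 fold change of 0.28 (limma adjusted p = 0.347), against adjusted p = 0.00105 for the mean of the lines in the model of 3 groups.

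*Serpina3n*, a secreted serine protease inhibitor, changed most. It lies on chromosome 12 from 104372810 to 104380597. Its normalized counts were 591, 506 and 525 in empty vector, 20.9, 22.7 and 23.4 in SAM1, and 17.8, 16.7 and 18.6 in SAM2. All libraries of the lines lay far below the lowest empty vector value. The reads behind these values were 578, 482 and 449, then 22, 23 and 24, then 18, 18 and 20. The mean was 24.2 times lower in SAM1 and 30.6 times lower in SAM2, and the log2 fold changes were -4.53 (standard error 0.122, limma adjusted p = 1.62e-12) and -4.86 (limma adjusted p = 1.59e-12). With both lines together it was -4.70 (standard error 0.141, limma adjusted p = 1.91e-08), the fourth lowest of the 15184 genes. SAM2 minus SAM1 gave -0.32 (limma adjusted p = 0.0360), a call that did not hold when empty vector replicate 1, 2 or 3, SAM1 replicate 2 or 3, or SAM2 replicate 1 or 2 was left out (adjusted p from 0.0565 to 0.0905). It was not called by edgeR or DESeq2 either (adjusted p = 0.245 and 0.296), and under quantile normalization its sign turned (0.083).

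*Serpina3n* is one of a cluster of *Serpina3* copies of similar sequence, so reads of close copies could be left out or assigned to the wrong one in counting. Of 10 other genes of the cluster, *Serpina3g* and *Serpina3i* were in the table. *Serpina3g* went from 100.6 ± 13.8 to 17.8 ± 3.59 in SAM1 and 49.9 ± 1.61 in SAM2 (SD, n = 3 each), a pooled log2 fold change of -1.72 (limma adjusted p = 0.00843). *Serpina3i* had 18.1 ± 4.19 normalized counts in empty vector, 4.89 ± 3.00 in SAM1 and 4.41 ± 2.81 in SAM2 (SD, n = 3 each). It was below 10 in every library of the lines and passed the filter only through empty vector, so its difference is given with no test.

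Between the lines themselves, *Cxcl1*, *Cxcl12*, *Ccl2* and *Ccl7* were higher in SAM2 than in SAM1. *Lif*, *Csf1* and, within the limits given above, *Serpina3n* were lower. These 7 of 9 genes stand beside 60.3% of all genes called between the lines (31.1% higher in SAM2, 29.2% lower). Libraries of the lines did not overlap for 8 genes, and for 68.2% of all genes. The largest of these differences was that of *Ccl7*, at 0.81. The median over the 9 genes was -0.18, and over all genes it was -0.0075.

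Levels of different genes were compared as normalized counts per kb of merged exons (GRCm39, GENCODE vM39). In empty vector the order was *Cxcl12* (3898 per kb), *Csf1* (1909), *Ccl2* (1836), *Ccl7* (735), *Lif* (437), *Cxcl1* (352), *Serpina3n* (138), *Il6* (5.37) and *Cxcl5* (3.06). Neighbours in this order did not overlap between libraries, except *Il6* and *Cxcl5*. In SAM1 *Cxcl12* (1681) still led *Csf1* (1404), *Ccl2* (988) and *Ccl7* (676), and *Cxcl1* (356) now lay above *Lif* (216). In SAM2 *Ccl2* (1548) followed *Cxcl12* (2245), *Csf1* (1243) and *Ccl7* (1179.9) overlapped, and *Lif* stood at 164. *Serpina3n*, at 5.72 per kb in SAM1 and 4.52 in SAM2, was last in both lines, below *Il6* (15.6 and 12.7) and *Cxcl5* (18.6 and 12.7), which overlapped each other in each line. Fewer cells of one kind and less RNA per cell cannot be told apart in such bulk libraries.

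Each gene was set beside the listed genes within 2 Mb of it, with all of the 9 genes left out of these neighbours. *Serpina3n* lay below all 32 of its neighbours in each line, whose median pooled log2 fold change was -0.24 and whose lowest was -1.88. For *Cxcl12* the 34 neighbours had a median of 0.30, against -1.0 for the gene itself, and 1 of them was lower. Around *Csf1* the 52 neighbours had a median of 0.18, and around *Lif* the 61 neighbours had -0.095. *Ccl2* and *Ccl7* each have 37 neighbours, with a median of 0.24 in the pooled fit, 0.13 in SAM1 and 0.40 in SAM2. The rise of *Ccl7* in SAM2 (0.68) thus stood among neighbours that were higher too, and 8 of the 37 were higher still. The 49 neighbours of *Il6* had a median of -0.23 and 1 of them was higher than *Il6*, and the 31 neighbours of *Cxcl5* had a median of -0.24, with 2 higher. These are descriptions with no test.

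**Figure D3:**
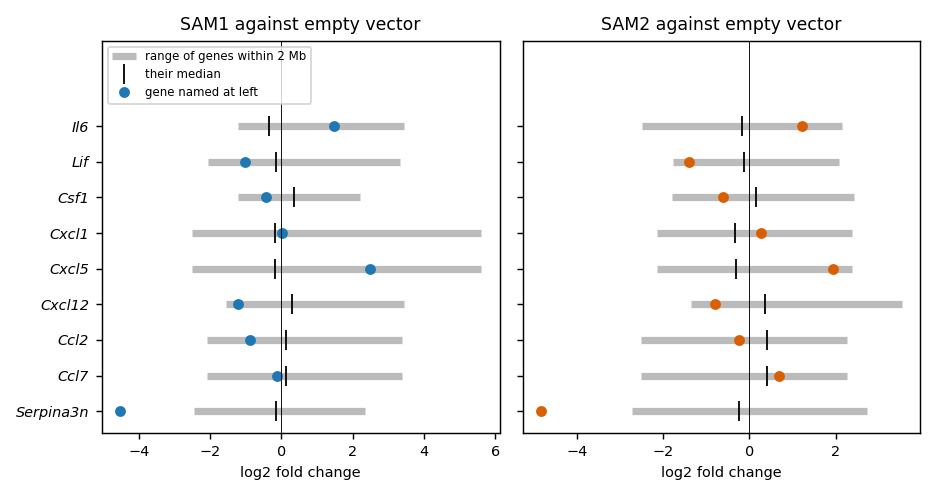
Log2 fold change (x axis) of each gene (point) against empty vector in SAM1 (left) and SAM2 (right), over the range (bar) and median (tick) of listed genes within 2 Mb. *Serpina3n* lies outside the range of its neighbours in both lines, and the other 8 genes lie within theirs.

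Across the 9 libraries, pairs of these genes ran together on the log2 scale. Pearson's r was 0.992 for *Lif* and *Csf1*, 0.957 for *Il6* and *Cxcl5*, 0.952 for *Cxcl1* and *Ccl7*, and 0.905 for *Cxcl12* and *Ccl2*. It was 0.378 for the adjacent *Ccl2* and *Ccl7* and 0.359 for *Cxcl1* and *Cxcl5*, the ligands of one receptor. These values describe 9 libraries in 3 groups, so they reflect mainly the order of 3 group means, and no test was made. Among 11334 other genes with a mean of at least 100 normalized counts, the closest in pattern were *Bmper* and *Dcn* for *Serpina3n* (r = 0.998 each), *Lrrn4cl* (r = 0.9995) and *Cd34* (r = 0.9994) for *Cxcl12*, *Mn1* (r = 0.999) and *Emx2* (r = 0.998) for *Lif*, and *Itgbl1* (r = 0.997) and *Ncam1* (r = 0.996) for *Csf1*. *Ccl2* was closest to *Serpinh1* and *Scpep1* (r = 0.998 each), *Ccl7* to *Micu3* and *Rpl7l1* (r = 0.986 each), and *Cxcl1* to *Cct5* (r = 0.991) and *Echs1* (r = 0.9896). *Cxcl5* was closest to *D6Wsu163e* (r = 0.9899) and *Drp2* (r = 0.989), and *Il6* to *Eef1akmt1* (r = 0.976) and *Skida1* (r = 0.974). Such likeness is common in these data, since 1234 genes had r over 0.95 with *Cxcl12* and 50 with *Cxcl1*.

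Other chemokines were described from a list of 31, of which 14 were in the table. With both lines together, 4 of the 14 were higher, 6 lower and 4 not called, with a median log2 fold change of -0.25. Over all genes, 26.8% were called higher and 27.0% lower in that fit. Only 8 of the 14 exceeded 10 in every library, and the filter on low values fixed the direction of some of the others. The count is therefore given as a description. The interferon-induced T cell attractant *Cxcl10* fell from 1813 ± 9.25 to 316 ± 9.11 in SAM1 and 412 ± 15.5 in SAM2 (SD, n = 3 each), -2.33 in the pooled fit (limma adjusted p = 3.67e-07). *Ccl5* fell from 1254 ± 18.2 to 292 ± 21.8 and 217 ± 9.83, -2.31 (limma adjusted p = 9.85e-07), and *Ccl9* from 926 ± 67.0 to 234 ± 13.6 and 228 ± 5.65, -2.0 (limma adjusted p = 3.81e-08). The membrane-bound *Cx3cl1*, the most abundant chemokine of that list by the mean over all 9 libraries though below *Cxcl10* in empty vector, rose from 1044 ± 35.3 to 2076 ± 69.7 and 1802 ± 15.8, 0.89 (limma adjusted p = 5.90e-06).

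Of 32 other cytokines, 20 were in the table, and *Il1a*, *Il1b*, *Tnf* and *Osm* were among the 12 that were not listed. With both lines together, 2 were higher, 6 lower and 12 not called (median -0.23), beside 26.8% of all genes called higher and 27.0% lower. *Kitl*, the stem cell factor and the most abundant of them, fell from 8502 ± 133 to 4214 ± 141 and 4769 ± 121 (log2 fold change -0.92, limma adjusted p = 2.06e-06). *Il7*, a lymphocyte growth factor, went from 101 ± 10.9 to 29.8 ± 2.64 and 26.2 ± 1.44 (-1.82, limma adjusted p = 4.51e-06). The granulocyte factor *Csf3* was at 33.9 ± 5.47 in empty vector and at 13.9 ± 2.06 and 12.3 ± 1.90 in the lines (-1.30, limma adjusted p = 3.67e-04).

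Of 41 further genes tied to the secretome of senescent cells, not all of them coding for secreted proteins, 40 were in the table. In the pooled fit 11 were higher, 16 lower and 13 not called (median -0.086), beside 26.8% of all genes called higher and 27.0% lower. Of the 40, 37 exceeded 10 in every library. *Timp2*, an inhibitor of matrix metalloproteinases and the most abundant of that list, fell from 206322 ± 5206 to 75626 ± 2082 in SAM1 and 82265 ± 420.5 in SAM2 (-1.39, limma adjusted p = 9.31e-08). *Igfbp7* rose from 10821 ± 435 to 28418 ± 1328 and 24557 ± 293 (1.29, limma adjusted p = 7.20e-07). The median of the list was 0.31 in SAM1 (19 higher, 18 lower) and -0.33 in SAM2 (12 higher, 23 lower). Of all genes, 37.3% were called higher and 36.9% lower in SAM1, and 35.2% and 35.3% in SAM2. A test of the difference between these medians was not made.

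On the receptor side, 9 of 18 genes were in the table, and *Cxcr2*, *Cxcr4* and *Ccr2*, the receptors of the chemokines above on leukocytes, were not among them. Of the 9, 3 were higher, 2 lower and 4 not called with both lines together (median 0.21). Of all genes, 26.8% were called higher and 27.0% lower. *Il6st*, the gp130 chain used by IL-6 and LIF, fell from 32159 ± 2361 to 12702 ± 728 in SAM1 and 15519.9 ± 146 in SAM2 (-1.19, limma adjusted p = 7.67e-06). *Ackr3*, the scavenging receptor of CXCL12, fell from 463 ± 25.9 to 312 ± 23.2 and 294 ± 17.9 (-0.61, limma adjusted p = 1.21e-04). *Cntfr*, which joins gp130 in the receptor of ciliary neurotrophic factor, rose from 75.2 ± 11.5 to 358 ± 25.5 and 363 ± 17.3 (2.26, limma adjusted p = 2.14e-07).

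All 34 genes of a list of NF-kB and C/EBP signalling were in the table. With both lines together, 6 were higher, 14 lower and 14 not called (median -0.092), beside 26.8% of all genes called higher and 27.0% lower. *Nfkbiz*, a nuclear IkB protein needed for the induction of *Il6*, rose from 2284 ± 36.9 to 4617 ± 151 in SAM1 and 4765 ± 45.7 in SAM2 (1.04, limma adjusted p = 3.82e-08). *Tnip1*, a partner of A20, rose by 0.49 (limma adjusted p = 1.25e-05). *Tnfaip3*, which encodes A20, a deubiquitinase that restrains NF-kB and is itself an NF-kB target, fell from 5099 ± 198 to 2309 ± 16.7 and 2822 ± 39.9 (-1.0, limma adjusted p = 1.29e-05). *Tab2*, the most abundant of that list by the mean over all 9 libraries and an adaptor of the kinase TAK1, had -0.070 (limma adjusted p = 0.568), and its sign turned under quantile normalization (0.026).

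The 18 JAK-STAT genes, which carry the signal of IL-6 and LIF, were all in the table. In the pooled fit 5 were higher, 6 lower and 7 not called (median -0.063), near the shares of all genes (26.8% higher and 27.0% lower). *Stat5a* rose by 0.55 (limma adjusted p = 4.84e-05). The phosphatases moved apart, with *Ptpn11* at -0.38 (limma adjusted p = 0.00932) and *Ptpn6*, at 24.6 ± 3.49 normalized counts in empty vector, at 1.41 (limma adjusted p = 0.00104).

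Of 12 genes for the turnover of AU-rich mRNAs, all were in the table. In the pooled fit 1 was higher, 5 were lower and 6 not called (median -0.047), beside 26.8% of all genes called higher and 27.0% lower. *Arid5a*, which stabilizes the *Il6* mRNA, fell from 1866 ± 38.7 to 1070.1 ± 44.5 in SAM1 and 1305 ± 16.9 in SAM2 (-0.66, limma adjusted p = 2.17e-04). *Zfp36l1*, which promotes decay of such mRNAs, fell by 0.69 (limma adjusted p = 0.00235), and its relative *Zfp36l2* by 0.18 (limma adjusted p = 0.00630), a call lost under quantile normalization. *Khsrp*, another decay factor, rose by 0.30 (limma adjusted p = 4.41e-04).

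**Figure D4:**
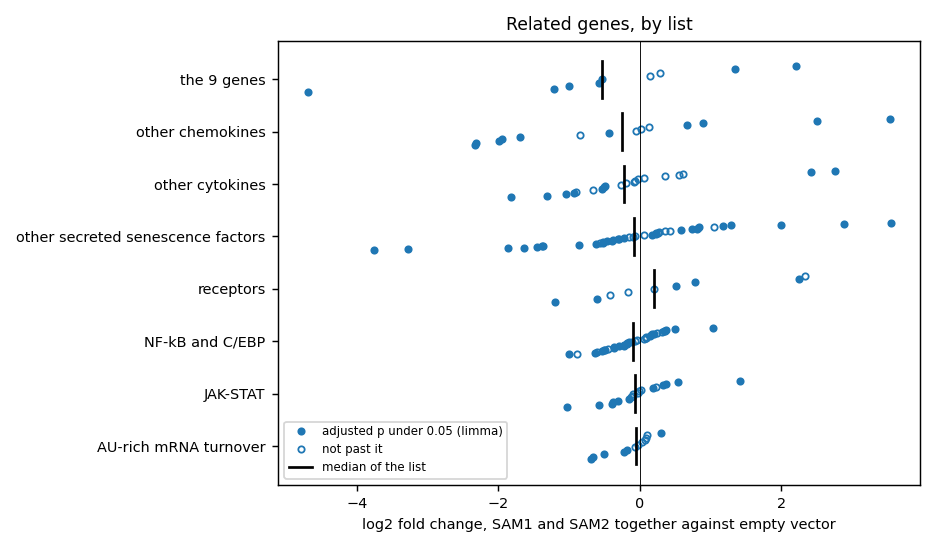
Log2 fold change (x axis) of both lines together against empty vector for the 9 genes and for the genes in the table from 7 lists of chemokines, cytokines, secreted factors, receptors and signalling or mRNA turnover genes (points; filled where limma gave an adjusted p under 0.05), with the median of each (bar). The medians shown lie between -0.53 for the 9 genes and 0.21 for the receptors, and each of these 8 sets holds genes on both sides of 0.

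Markers of other cell types differed between the groups as well, and their part in the values above was not tested. Their counts stand beside all genes, of which 26.8% were called higher and 27.0% lower in the pooled fit. These shares were 37.3% and 36.9% in SAM1, and 35.2% and 35.3% in SAM2. Between the lines 31.1% of all genes were higher in SAM2 and 29.2% lower. Of 12 macrophage markers, 5 were in the table, 2 of them higher with both lines together (*Cd68* 0.55 and *Cd14* 0.66, the latter lost without empty vector replicate 1 or 3, limma adjusted p = 0.0544 and 0.0527). Against empty vector 4 of the 5 were called higher in SAM1 (none lower), while in SAM2 2 were called higher and 3 lower, and 4 of the 5 were lower in SAM2 than in SAM1. *Csf1r*, the receptor of CSF1, had -0.42 pooled (limma adjusted p = 0.320), from 0.16 in SAM1 (limma adjusted p = 0.125) and -1.01 in SAM2 (limma adjusted p = 3.10e-07). *Lyz2* had 1.20 in SAM1 (limma adjusted p = 8.46e-06) and -0.78 in SAM2 (limma adjusted p = 4.37e-04). *Mrc1*, below 10 in empty vector and SAM2, was at 5.79 ± 1.06, 25.5 ± 5.75 and 1.24 ± 1.42 normalized counts (SD, n = 3 each). It passed the filter only through SAM1, where it is high, so its place in these counts supports nothing. *Ptprc*, *Adgre1*, *Itgam* and *Tyrobp* were not listed. The 5 listed markers summed to 1493 to 1529 in empty vector, 2544 to 2693 in SAM1 and 1757 to 1777 normalized counts in SAM2. Of 8 endothelial markers, 5 were in the table (2 higher, none lower), with sums of 428 to 468, 4922 to 5343 and 907 to 977. That sum follows *Kdr*, at 211 ± 31.5, 4693 ± 194 and 536 ± 27.3 (SD, n = 3 each), whose pooled log2 fold change was 2.92 (limma adjusted p = 0.0198). The *Kdr* call was lost without empty vector replicate 1, 2 or 3 (limma adjusted p = 0.0525, 0.0577 and 0.0679). *Vwf* rose by 1.36 (limma adjusted p = 2.47e-05), and *Cdh5* had -0.45 (limma adjusted p = 0.0983). Of 8 epithelial markers, 4 were in the table (1 higher with both lines together, all 4 higher in SAM1, 1 higher and 1 lower in SAM2), with sums of 2247 to 2428, 7209 to 7734 and 2832 to 2918. Most of the rise of the sum in SAM1 is that of the tight junction gene *Cldn4*, at 366 ± 18.5, 3691 ± 75.6 and 211 ± 21.0 (SD, n = 3 each), with 3.33 in SAM1 (limma adjusted p = 1.18e-13) and -0.79 in SAM2 (limma adjusted p = 2.06e-07). *Krt19*, at 1938 ± 72.0, 3623 ± 217 and 2624 ± 47.1, rose by 0.67 in the pooled fit (limma adjusted p = 0.00271). *Cdh1* had 0.64 (limma adjusted p = 0.283) and *Krt8* had 0.68 (limma adjusted p = 0.0852), which passed without empty vector replicate 2 (limma adjusted p = 0.0340). The 12 fibroblast markers summed to 1068550 to 1161290, 900751 to 958293 and 1189430 to 1229160. With both lines together 1 of them was higher and 4 lower, among them *Dcn*, which codes for decorin (-2.17, limma adjusted p = 3.12e-09), *Pdgfra* (-0.71) and *Pdgfrb* (0.74), while *Fn1*, the most abundant, had -0.011 (limma adjusted p = 0.960).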

How the data were processed

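PolyA+ RNA of MEFs was measured by RNA-Seq in 9 libraries, grouped by the labels (empty vector, SAM1 and SAM2, 3 each). Libraries were made with a directional kit and read in pairs of 43 bases on a NextSeq500. Per the labels and methods, the authors checked reads with FastQC (0.11.0), aligned them to GRCm39 with TopHat2 and Bowtie2 (3 mismatches, 20 multihits), counted them with HTSeq on GENCODE vM29, and divided counts by DESeq2 size factors. Reads that align to near-identical copies may therefore be left out or assigned to the wrong copy, and the settings of HTSeq are not given. The deposited values are thus a normalized signal and no longer counts. The authors kept genes that exceeded 10 in 30% of the libraries or more, and all 15184 genes did so in at least 3. The table held 0 columns of other samples.

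All values were whole multiples of 1 read (100% within 0.001), also in SAM2 replicate 1, whose step lay near 1 and whose reads rest on a search of its own. Reads numbered 41759636 to 49026626 per library, and replicates differed by more than sampling noise (chi-square per gene 1.46 to 13.8). This measure was 11.5 to 13.8 between empty vector libraries, 1.46 to 9.49 in SAM1 and 1.54 to 2.33 in SAM2. The spread was thus unequal, while the groups share 1 estimate of it in the fits below.

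Values were tested as log2(value + 1) in limma (3.58.1, moderated with a trend, R 4.3.3), two-sided, with Benjamini-Hochberg adjustment over all genes and a threshold of 0.05. The pooled comparison set 6 libraries against 3 in 2 groups, while SAM1, SAM2 and empty vector were contrasted from a model of 3 groups. Fold changes on this scale understate those of low genes. Alternatives were a pseudocount of 10, genes above 10 in every library, quantile and median scaling, the replicate block, edgeR (4.0.16) and DESeq2 (1.42.0) on recovered reads, the mean of the lines, and each library left out. The tests were checked on simulated counts.

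Members and lists were chosen with earlier results of these data known. Named genes are the 9 members, *Hnrnpk*, for each list (other chemokines, other cytokines, other secreted factors, receptors, NF-kB and C/EBP, JAK-STAT, AU-rich turnover, the *Serpina3* cluster, and fibroblast, macrophage, endothelial and epithelial markers) the 3 genes with the smallest pooled adjusted p and the most abundant one by mean over all libraries, and for each member the 2 closest in pattern; 2 genes that the rule takes in are not reported here. Genes named as listed or not listed in the table, and marker names without values, are outside that rule, and *Lyz2*, *Mrc1* and *Cldn4* were named after their values were seen. Coordinates come from GENCODE vM39 on GRCm39, in which 14791 names were found once, and promoters from RefSeq on GRCm38.p6. Protein sequences were not used here.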

Additional observations from a re-analysis of the deposited data

Results flagged for a closer look

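The 2 lines labelled Hnrnpk_SAM differed from each other, by limma's contrast of SAM2 minus SAM1 on the log2 scale, in 7 of the 9 genes and in *Hnrnpk*. SAM2 was higher for *Ccl7* (0.81), *Ccl2* (0.65), *Cxcl12* (0.42) and *Cxcl1* (0.26), and lower for *Lif* (-0.39), *Serpina3n* (-0.32) and *Csf1* (-0.18). The difference of *Serpina3n* was not called by edgeR or DESeq2 (adjusted p = 0.245 and 0.296), and its sign turned under quantile normalization (0.083). *Hnrnpk* was higher in SAM2 by 0.15 (adjusted p = 2.88e-04 from limma). Between the lines 60.3% of all genes were called. Their cause was not tested, and the line, the guide and the culture cannot be told apart.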

How the results depend on the processing

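Among 577 values of the 9 genes under the alternatives, 547 kept their direction and side of the threshold, 15 lost and 9 gained a call, and 6 had the opposite sign; for other named genes and *Hnrnpk* these were 721, 7, 7 and 8 of 743. With genes above 10 in every library, *Il6* and *Cxcl5* are not tested, so genes called higher numbered 0 for both lines, 0 for SAM1 and 2 for SAM2. In the fit of the mean of the lines, 4 were called higher, with *Cxcl1* and *Ccl7* added (adjusted p = 0.0130 and 0.00105). Signs turned, with causes not tested, for *Cxcl1* in SAM1 (-0.021 with quantile and -0.032 with median scaling, and -0.033 to 0.046 with 1 library left out), *Il6* (0.10) and *Serpina3n* (0.083) between the lines and *Tab2* (0.026) with quantile scaling, *Hnrnpk* with quantile (0.094 in SAM1, 0.16 pooled, with SAM2 called at 0.22) and median scaling (-0.035 in SAM2), and *Fn1* (-0.12 to 0.092 with 1 library left out). Same-numbered libraries deviated together weakly (mean r 0.0531 over 9 pairs, from 0.00237 to 0.117, against -0.0265 for other pairs). Of these 9 pairs 3 had r over 0.1, and of the 18 other pairs 0 did. Whether the number stands for a batch was not tested. With the replicate block, 7343 genes were called for both lines together in place of 8179, *Ccl2* lost its pooled call (adjusted p = 0.0626), as did *Kdr* (0.0502) and the line difference of *Serpina3n* (0.0563), and *Ccl7* was called lower in SAM1 (0.0374). In SAM1 the block raised the count of all genes called from 11275 to 11631, and in SAM2 from 10699 to 11095. Between the lines that count rose from 9162 to 9812. The pooled count of all genes was 11323 for the mean of the lines, 8168 by edgeR, 8468 by DESeq2, and 6761 to 8133 with 1 library left out. Few reads limit *Il6* and *Cxcl5*.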
